A study of Mus musculus with 16 samples.

Results

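Processed pseudogenes are copies of messenger RNAs that were reverse transcribed and inserted back into the genome. They lack the introns of the parent gene, usually lack its promoter, and are scattered over chromosomes away from the parent. Genes with abundant transcripts, such as those of ribosomal proteins and glycolytic enzymes, have left many copies in the mouse genome. Some copies are transcribed from a promoter near the place of insertion, and the retrocopies present at a given place can differ between inbred strains. A short read can be assigned to a copy rather than to its parent only where their sequences differ.

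Hippocampal counts of 188 processed pseudogenes were examined. They were the genes that the deposited table places in the processed pseudogene category and whose raw counts summed to 160 or more over all 16 mice, with Gm8423 left out by the rule. The table held 9997 genes of this category among 55335 genes, and 4782 of the 9997 had at least 1 count. The pseudogenes were thus chosen by the counts of the same mice that are compared here. A gene near 0 counts in one genotype could enter through the other, and 16 of the 188 had 90% or more of their counts in the 8 mice of 1 genotype. Just outside the limit were Gm4366 (158 counts) and Gm7507 (159 counts), and just inside were Gm15542 (161 counts) and Gm7787 (162 counts).

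The cohort held 16 female mice, 4 per group, aged 10 months. WT mice carried the strain label C57BL/6J x 129S1. The 3xTg mice, a model of Alzheimer's disease, carried human APP Swedish and tau P301L transgenes under the neuronal Thy1.2 element and a different strain label. Mice received vehicle (WT-D, 3xTg-D) or the stearoyl-CoA desaturase inhibitor CAY10566 at 80 µM (WT-S, 3xTg-S) into the lateral ventricle for 28 days, and all infusates held 0.8% DMSO. The titles and treatment labels name the Cayman compound, and these were followed, whereas the protocol given for every library cites ab142089, another desaturase inhibitor. Because the 2 genotypes carry different strain labels, the transgenes and the rest of the strain cannot be told apart in a genotype comparison. The model is 1 transgenic line.

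The libraries held 15413385 to 23590149 reads on genes, of which 5445 to 14409 fell on the 188 pseudogenes. Thy1 checked the genotype labels, with 517 to 625 CPM (gene counts scaled to library size with TMM factors) in WT and 1566 to 2141 CPM in 3xTg mice. All 5 hippocampal neuron markers examined were detected, with a summed level of 677 to 1042 CPM. Choroid plexus markers reached a summed 723 CPM in 1 WT-D and 289 CPM in 1 WT-S mouse, against 28.0 to 45.2 CPM in 3xTg mice, and 1 of the 5 was called over both infusions. Of 4 oligodendrocyte markers, 2 were called between WT-D and 3xTg-D. Their part in the pseudogene differences was not tested. In bulk tissue, fewer cells of a type and less RNA per cell cannot be told apart.

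The pseudogenes were of low abundance. Their mean level over the 16 mice ranged from 0.513 to 29.0 CPM, with a median of 0.952 CPM, and the 5 most abundant held 22.7% of their reads. All 188 passed the filter on low counts. Of the 187 found in the reference annotation, 175 aligned to a protein-coding transcript at 80% identity or more over at least 50% of their length, with a median identity of 97.7%. These 175 resembled 143 different genes, which are called the resembled genes below, and only 11 of the 175 lay on the chromosome of that gene. In 62 of the 187, fewer than 50% of the 75-base windows occurred once among annotated transcripts, so that their reads are hard to tell from those of their copies.

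Sequences of 5 of the called pseudogenes are shown, to give reference positions at which a copy and its resembled gene differ. Whether these positions bear on the genotype differences was not tested. Each is given with the aligned coding bases of the resembled gene, as 120 bases on the coding strand. The 120 bases are the gap-free stretch of the coding alignment with the most differences, so they overstate the difference over the whole alignment. Capitals mark the bases at which both differ. They were read from the Gencode M21 transcripts on GRCm38.
Gm15610, chr5:8971951-8972070, plus strand: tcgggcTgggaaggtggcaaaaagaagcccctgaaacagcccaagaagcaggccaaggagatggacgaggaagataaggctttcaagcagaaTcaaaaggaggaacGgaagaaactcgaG
Tma7, the aligned coding bases: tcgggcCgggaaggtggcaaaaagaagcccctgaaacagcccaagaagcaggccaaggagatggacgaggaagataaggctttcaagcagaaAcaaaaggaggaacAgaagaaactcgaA
Mrpl48-ps, chr4:88599362-88599481, minus strand: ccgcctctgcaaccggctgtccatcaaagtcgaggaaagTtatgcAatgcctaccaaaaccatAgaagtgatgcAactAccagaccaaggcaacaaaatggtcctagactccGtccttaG
Mrpl48, the aligned coding bases: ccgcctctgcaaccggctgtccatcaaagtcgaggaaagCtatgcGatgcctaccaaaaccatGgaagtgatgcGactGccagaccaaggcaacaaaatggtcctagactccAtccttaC
Gm47240, chr9:61472813-61472932, minus strand: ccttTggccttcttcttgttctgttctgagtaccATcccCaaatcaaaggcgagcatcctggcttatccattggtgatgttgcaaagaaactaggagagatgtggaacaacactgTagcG
Hmgb1, the aligned coding bases: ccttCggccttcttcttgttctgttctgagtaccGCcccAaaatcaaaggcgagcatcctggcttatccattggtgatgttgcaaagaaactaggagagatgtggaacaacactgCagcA
Rps3a3, chr13:108670743-108670862, plus strand: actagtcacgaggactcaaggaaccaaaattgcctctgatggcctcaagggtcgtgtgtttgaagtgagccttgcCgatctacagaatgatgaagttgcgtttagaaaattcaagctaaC
Rps3a1, the aligned coding bases: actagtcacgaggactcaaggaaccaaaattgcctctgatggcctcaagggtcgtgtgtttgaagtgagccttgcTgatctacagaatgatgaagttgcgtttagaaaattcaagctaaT
Rpl3-ps1, chrX:13202572-13202691, plus strand: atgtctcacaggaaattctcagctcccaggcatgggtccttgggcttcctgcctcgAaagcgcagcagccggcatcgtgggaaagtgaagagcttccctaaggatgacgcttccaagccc
Rpl3, the aligned coding bases: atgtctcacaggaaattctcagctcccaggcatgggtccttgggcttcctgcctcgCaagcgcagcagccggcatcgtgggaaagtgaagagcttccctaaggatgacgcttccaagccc
Over the whole coding alignment, Gm15610 differed from Tma7 at 4 of 192 bases, Mrpl48-ps from Mrpl48 at 12 of 633 and Gm47240 from Hmgb1 at 19 of 401. Rps3a3 differed from Rps3a1 at 9 of 792 bases and Rpl3-ps1 from Rpl3 at 2 of 1209 bases. The reference Rpl3-ps1 thus has few positions at which a read can be assigned, and 5.11% of its windows occurred once. In Gm15610 the share was 90.9%, in Mrpl48-ps 66.7%, in Gm47240 72.4% and in Rps3a3 54.6%.

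To ask which pseudogenes differed by genotype, WT and 3xTg mice were compared within each infusion by edgeR's quasi-likelihood test. A gene was called when its p, after Benjamini-Hochberg adjustment over all 16475 genes tested, was at most 0.05. Under vehicle, 13 of the 188 pseudogenes (6.91%) were called, beside 1.85% of all genes tested. Of these, 12 were lower in 3xTg-D and 1 was higher, where 0.971% and 0.88% of all genes were. Under CAY10566, 12 pseudogenes (6.38%) were called, beside 1.4% of all genes, with 11 lower and 1 higher in 3xTg-S (0.844% and 0.552% of all genes). The groups did not overlap in 21 pseudogenes under vehicle (8.17% of all genes) and in 25 under CAY10566 (6.75% of all genes). Called in both with the same direction were 9 pseudogenes (0.85% of all genes), and called in at least 1 of the 2 were 16 (2.4% of all genes). The mice of the vehicle and CAY10566 comparisons were different. Same-numbered WT-D and WT-S mice were correlated, however (0.114 to 0.340), and whether the 2 comparisons are independent was not tested. Of the 13 called under vehicle, 12 kept their direction under CAY10566, as did 98.4% of all genes called under vehicle. Of the 16, 13 had 90% or more of their counts in 1 genotype, so for these the counts that met the rule were those of the genotype in which they are high.

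The median log2 fold change (3xTg over WT) of the 188 was -0.0034 under vehicle and -0.13 under CAY10566, against -4.27e-05 and 0.0019 over all genes tested. The pseudogenes spread more widely, with quartiles of -0.31 and 0.27 under vehicle and -0.49 and 0.25 under CAY10566, against -0.11 and 0.09 and -0.12 and 0.12 over all genes. Under CAY10566, 115 of the 188 lay below 0 and 73 above it, and under vehicle 95 and 93 did. In addition, 34 pseudogenes (18.1%) under vehicle and 37 (19.7%) under CAY10566 differed by more than 1 on the log2 scale, compared with 2.26% and 2.68% of all genes. The pseudogenes were of low abundance, and the genes they are set against here were not matched to them by level. The part of low counts in the wider spread and in these shares was not tested.

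**Figure D1:**
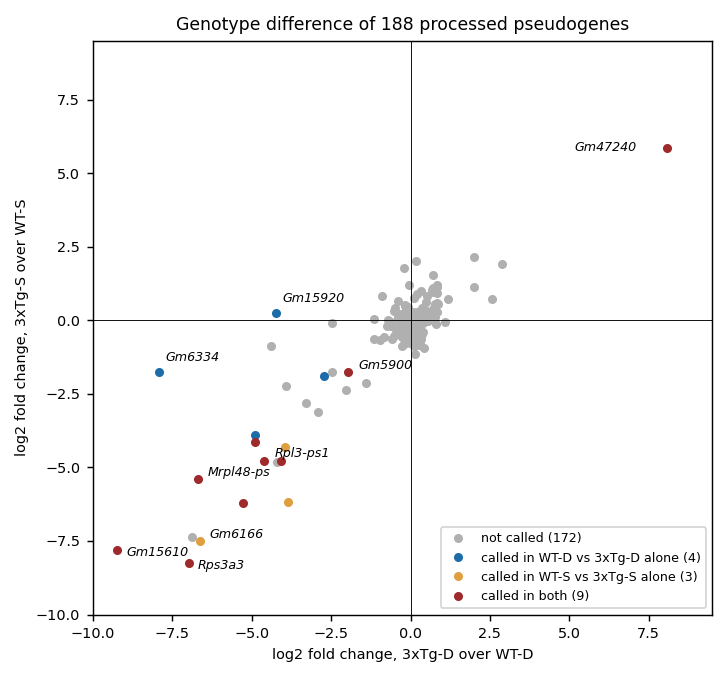
Log2 fold change of 3xTg over WT mice for each of the 188 processed pseudogenes, under vehicle on the horizontal axis and under CAY10566 on the vertical axis, coloured by call (edgeR, adjusted p up to 0.05). The points spread around 0, the 9 called in both lie far from it, and of these only Gm47240 was higher in 3xTg mice.

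Gm15610, a copy of the translation machinery gene Tma7 in an intron of Crot on the opposite strand (chr5:8971948-8972142), was present in WT mice and at 0 or 1 read in each 3xTg mouse. It had 3.63, 3.70, 3.55 and 4.03 CPM in the WT-D mice and no read in any 3xTg-D mouse. The WT-S mice had 4.60, 4.46, 5.50 and 3.85 CPM, and the 3xTg-S mice had 0, 0, 0 and 0.0540 CPM. No WT mouse overlapped a 3xTg mouse. Against a floor of 3 counts over the group, the level in 3xTg-D was at least 98.3-fold lower (adjusted p = 3.10e-05). With 1 read in 3xTg-S, the ratio of WT-S to 3xTg-S was 326 (95% counting interval 58.2 to 12923, adjusted p = 5.97e-06). Counting intervals and floors cover counting error only.

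Mrpl48-ps, a copy of the mitochondrial ribosomal protein gene Mrpl48 (chr4:88599175-88599810), reached 4.52, 5.52, 4.05 and 4.14 CPM in the WT-D mice, while the 3xTg-D mice had 0.0549, 0, 0.106 and 0 CPM. The WT-S mice had 5.26, 5.6, 6.33 and 2.77 CPM, the 3xTg-S mice 0, 0.143, 0.128 and 0.162 CPM. The genotypes did not overlap under either infusion. The ratio of WT-D to 3xTg-D was 121 (95% counting interval 41.0 to 588 from 3 reads in 3xTg-D, adjusted p = 1.93e-05), and the log2 fold change under CAY10566 was -5.40 ± 0.44 (SE, adjusted p = 9.58e-05).

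Rps13-ps1, a copy of the small-subunit ribosomal protein gene Rps13 (chr8:87047689-87048226), reached 3.55, 2.64, 3.6 and 2.76 CPM in the WT-D mice, while the 3xTg-D mice had 0, 0.0839, 0.106 and 0.109 CPM. The WT-S mice had 3.15, 4.46, 4.13 and 2.5 CPM, the 3xTg-S mice 0.0654, 0.0477, 0 and 0.0540 CPM. Every WT mouse was above every 3xTg mouse. The log2 fold change was -5.26 ± 0.37 under vehicle (SE, adjusted p = 3.30e-05), and with 3 reads in 3xTg-S the WT-S to 3xTg-S ratio was 83.8 (95% counting interval 28.4 to 409, adjusted p = 2.20e-05). Only 18.1% of its windows occurred once.

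Gm47240 was the one called pseudogene that was higher in 3xTg mice. It is a copy of the chromatin protein gene Hmgb1 (chr9:61472591-61472986). It had no read in any WT-D mouse and 1.65, 2.10, 1.33 and 1.42 CPM in the 3xTg-D mice. The WT-S mice had 0.0470, 0, 0 and 0 CPM, the 3xTg-S mice 1.24, 1.05, 1.28 and 0.864 CPM. Again no mouse of one genotype overlapped the other. The difference was at least 46.3-fold under vehicle (adjusted p = 0.000558). Under CAY10566 the ratio was 88.5 (95% counting interval 15.4 to 3540 from 1 read in WT-S, adjusted p = 0.000352).

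Gm14150 (chr2:151458956-151460309), a copy of the alpha-tubulin gene Tuba1b, ranged from 1.19 to 3.25 CPM over the 8 WT mice and from 0 to 0.159 CPM over the 8 3xTg mice. Its log2 fold changes were -4.08 ± 0.47 (adjusted p = 0.00118) and -4.79 ± 0.57 (adjusted p = 0.00172) under vehicle and CAY10566. Gm14292 (chr2:179177425-179177880) resembles Wtap, a subunit of the RNA methyltransferase complex. It ranged from 0.500 to 2.07 CPM in WT and from 0 to 0.196 CPM in 3xTg mice, with a WT-D to 3xTg-D ratio of 34.9 (95% counting interval 11.6 to 172, adjusted p = 0.00462) and a log2 fold change of -4.13 ± 0.50 under CAY10566 (adjusted p = 0.00193). Gm5900 (chr7:104949915-104950289) resembles Lamtor3, a scaffold of the lysosomal Ragulator complex, and kept a level in 3xTg mice. It had 1.84 to 2.85 CPM in WT and 0.392 to 1.10 CPM in 3xTg mice, with log2 fold changes of -1.98 ± 0.23 (adjusted p = 0.00108) and -1.77 ± 0.30 (adjusted p = 0.0159). Leaving out WT-S mouse 1, 2 or 3 or 3xTg-S mouse 3 or 4 ended the call of Gm5900 under CAY10566, with an adjusted p of 0.0526 to 0.0654. All 3 have fewer than 50% of windows found once.

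The remaining 2 of the 9 had single WT mice at the 3xTg level. Rps3a3, a copy of the ribosomal protein gene Rps3a1 in a same-strand intron of Pde4d (chr13:108670603-108671397), reached 31.2, 0.0961, 29.8 and 50.9 CPM in the WT-D mice, while the 3xTg-D mice had 0.165, 0.252, 0.265 and 0.164 CPM. The WT-S mice had 31.2, 34.0, 34.6 and 47.0 CPM, the 3xTg-S mice 0.196, 0.0954, 0 and 0.162 CPM. WT-D mouse 2 thus lay below all 4 3xTg-D mice, while the CAY10566 groups did not overlap. The log2 fold changes were -6.99 ± 1.29 (adjusted p = 0.0226) and -8.26 ± 0.29 (adjusted p = 2.59e-07). The first call was lost when WT-D mouse 4 or 3xTg-D mouse 1, 3 or 4 was left out, with an adjusted p of 0.0544 to 0.0964.

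Rpl3-ps1, a copy of the large-subunit ribosomal protein gene Rpl3 on the X chromosome (chrX:13202571-13203780), reached 22.7, 14.1, 12.7 and 11.7 CPM in the WT-D mice, while the 3xTg-D mice had 0.659, 0.629, 0.584 and 0.600 CPM. The WT-S mice had 24.7, 29.4, 13.5 and 0.488 CPM, the 3xTg-S mice 0.719, 0.763, 0.385 and 0.594 CPM. WT-S mouse 4 was inside the range of the 3xTg-S mice. The log2 fold changes were -4.62 ± 0.26 (adjusted p = 8.58e-06) and -4.78 ± 0.92 (adjusted p = 0.0300), and the second call was lost when any mouse but WT-S mouse 4 was left out, with an adjusted p of 0.0506 to 0.119.

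**Figure D2:**
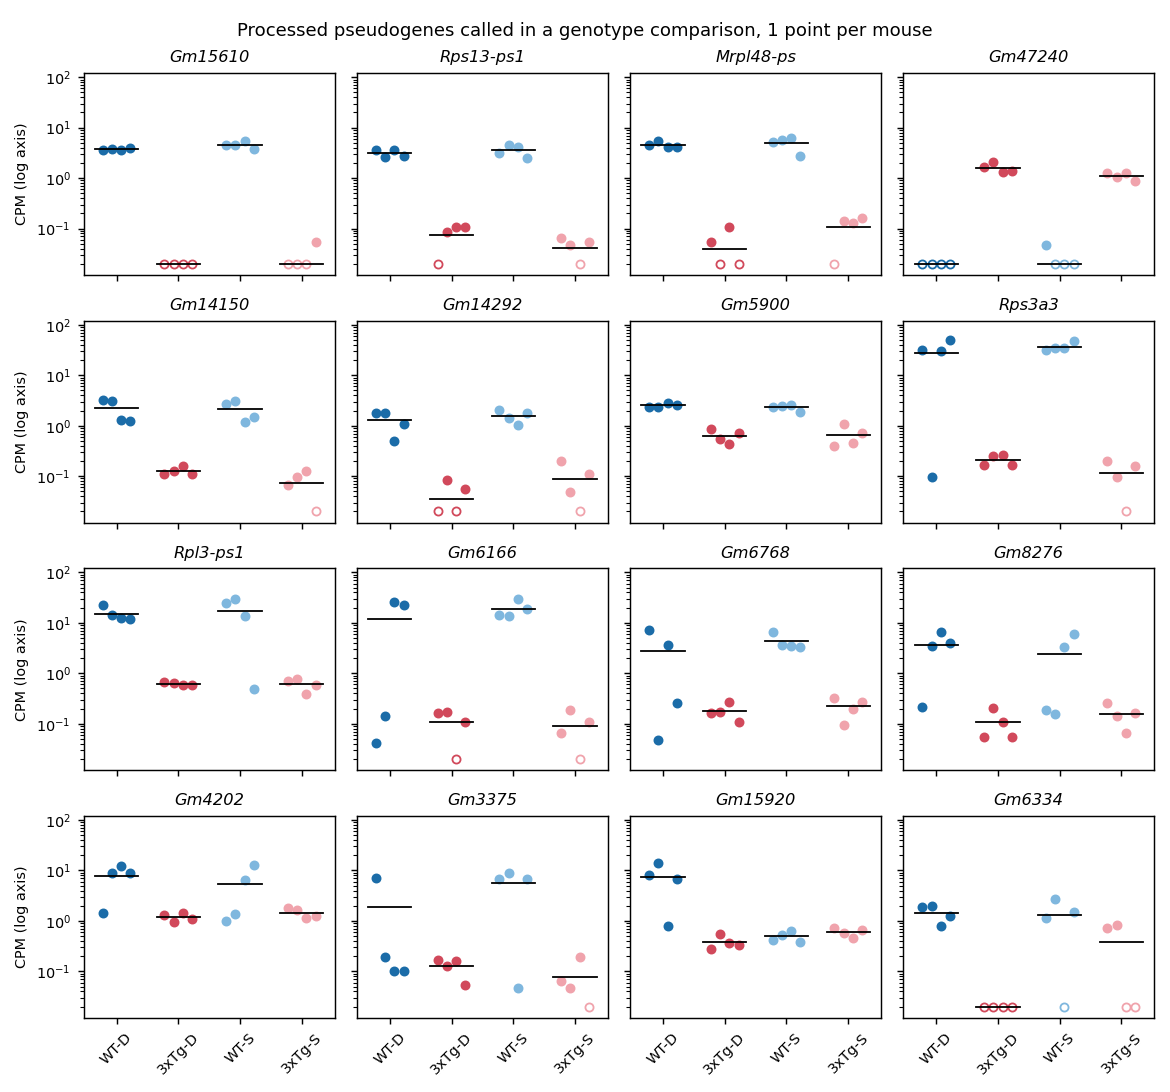
CPM of the 16 called processed pseudogenes in each mouse (log axis), by group, with 1 point per mouse and a line at the mean of 4 mice. Open points are mice with no read, and these and means below 0.02 CPM are drawn at 0.02. The first 7 panels show WT and 3xTg mice apart, while in most later panels some WT mice lie at the 3xTg level.

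The other 7 called pseudogenes passed in 1 comparison each, and in none of them was the difference between the comparisons called by the interaction test (adjusted p of 0.788 to 0.963, edgeR). Gm6166, which resembles the fatty acid binding protein gene Fabp5 (chr9:57483963-57484371) and lies in a same-strand intron of the annotated pseudogene Gm18103, had 0.0422, 0.144, 25.5 and 22.3 CPM in WT-D mice. It had 14.3, 13.4, 30.03 and 18.7 CPM in WT-S mice and at most 0.191 CPM in any 3xTg mouse. It was called under CAY10566 (log2 fold change -7.51 ± 0.46, adjusted p = 1.04e-05), where the groups did not overlap, and not under vehicle (-6.64 ± 1.78, adjusted p = 0.117), where WT-D mice 1 and 2 lay among the 3xTg-D mice. Without WT-D mouse 1 it was called under vehicle as well (-7.06, adjusted p = 0.0331). Gm6768 resembles Ncoa4, the receptor for ferritin turnover (chr12:119260978-119262855), and had 7.27, 0.0480, 3.65 and 0.255 CPM in the WT-D mice and 6.67, 3.58, 3.53 and 3.36 CPM in the WT-S mice, and at most 0.327 CPM in 3xTg mice. Its log2 fold change was -4.29 ± 0.38 under CAY10566 (adjusted p = 0.000155) and -3.96 ± 1.20 under vehicle (adjusted p = 0.176). Gm3375 resembles the proteasome subunit gene Psmb5 (chr7:3181093-3181888). It had 7.01, 0.192, 0.1 and 0.102 CPM in the WT-D mice and 6.76, 8.86, 0.0458 and 6.84 CPM in the WT-S mice, with at most 0.193 CPM in 3xTg mice, and was called under CAY10566 (-6.18 ± 1.22, adjusted p = 0.0329). That call was lost when WT-S mouse 1 or 2 or any 3xTg-S mouse was left out, with an adjusted p of 0.0614 to 0.107. Under vehicle its log2 fold change of -3.86 ± 1.47 (adjusted p = 0.308) became -0.07 without WT-D mouse 1.

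Called under vehicle were 4 further pseudogenes. Gm8276 (chr3:59431537-59433348) and Gm4202 (chr3:92689426-92690158) resemble Pabpc1, the poly(A) binding protein gene, and Ywhaz, an adaptor protein gene. Gm8276 had 0.211, 3.46, 6.61 and 4.03 CPM in the WT-D mice, 0.188, 0.155, 3.39 and 6.02 CPM in the WT-S mice and at most 0.262 CPM in 3xTg mice. Gm4202 had 1.44, 8.74, 12.5 and 9.09 CPM in the WT-D mice, 0.986, 1.35, 6.56 and 12.9 CPM in the WT-S mice and 0.965 to 1.77 CPM in 3xTg mice. The same 3 mice, WT-D mouse 1 and WT-S mice 1 and 2, were low for both. Their log2 fold changes under vehicle were -4.90 ± 0.93 (adjusted p = 0.0266) and -2.71 ± 0.53 (adjusted p = 0.0302), and the groups did not overlap. The call of Gm8276 was lost without WT-D mouse 2, 3 or 4 or 3xTg-D mouse 1, 3 or 4 (adjusted p of 0.0591 to 0.106), and that of Gm4202 without any mouse but WT-D mouse 1 (adjusted p of 0.0602 to 0.101). Gm6334 resembles the protein kinase A inhibitor gene Pkig and lies in an opposite-strand intron of Shcbp1 (chr8:4778042-4778269). It had 0.801 to 1.97 CPM in WT-D mice and no read in any 3xTg-D mouse, at least 39.3-fold lower (adjusted p = 0.00323). Under CAY10566 it had 1.13, 2.69, 0 and 1.52 CPM in WT-S and 0.719, 0.811, 0 and 0 CPM in 3xTg-S mice, with a log2 fold change of -1.75 ± 1.02 (adjusted p = 0.606).

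Gm15920, which resembles the respiratory complex I gene Ndufa12 and lies in a same-strand intron of Rabgef1 (chr5:130188395-130188796), was the only one of the 13 called under vehicle with the opposite sign under CAY10566. It had 8.15, 13.8, 0.801 and 6.74 CPM in WT-D, and 0.423, 0.518, 0.642 and 0.380 CPM in WT-S mice. The 3xTg-D mice had 0.275 to 0.545 CPM and the 3xTg-S mice 0.450 to 0.719 CPM. The log2 fold change was -4.23 ± 0.73 under vehicle (adjusted p = 0.0160) and 0.26 ± 0.30 under CAY10566 (adjusted p = 0.799). WT-D mice 1, 2 and 4 were thus the only mice above 1 CPM. The call was lost without 3xTg-D mouse 1, 3 or 4 (adjusted p of 0.0564 to 0.0738).

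With all 16 mice in 1 fit, the genotype difference over both infusions called 23 pseudogenes (12.2%), beside 4.97% of all genes tested. Of these, 21 were lower and 2 higher in 3xTg mice (2.64% and 2.32% of all genes). They comprised the 16 above and 7 that no single comparison called. These were Gm11645, Gm11868, Gm15459, Gm7049, Gm5823 and Eif3s6-ps2, lower, and Gm9625, higher, with log2 fold changes from -7.11 to 1.57 and adjusted p of 0.0046 to 0.0404. All 8 WT and all 8 3xTg mice were apart in 8 pseudogenes, or 4.26%, beside 1.7% of all genes tested. Of these, 6 were lower and 2 higher in 3xTg mice (0.88% and 0.819% of all genes). Besides the first 7 described, the eighth was Gm8730, a copy of Rplp0 that missed the call (log2 fold change 2.40 ± 0.69, adjusted p = 0.0582).

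To ask how the pseudogenes varied among mice of 1 group, the highest of the 4 levels was divided by the lowest, with a floor of 3 counts. A ratio of 8 or more with a highest level of at least 1 CPM was counted as a wide range, a limit set after the values were seen. In WT-D 29 pseudogenes had a wide range and in WT-S 32, or 15.4% and 17% of the 188. In 3xTg-D 4 and in 3xTg-S 5 had one, or 2.13% and 2.66%. Over all genes tested the shares were 0.777% in WT-D, 0.528% in WT-S, 0.225% in 3xTg-D and 0.789% in 3xTg-S. In all, 38 pseudogenes had a wide range in a WT group and 5 in a 3xTg group, 3 of them in both. The difference between genotypes in these counts was not tested. Of the 38, 15 were below 1 CPM in all 8 3xTg mice and so could not have a wide range there, 13 were at 1 CPM or more in all of them and 10 were mixed. Over the 8 3xTg mice, 33 of the 38 stayed within 5-fold, with a fixed CPM floor in place of the 3 counts. A copy that stays near that floor meets this limit whatever its spread, so the 33 are not a count of stable copies.

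**Figure D3:**
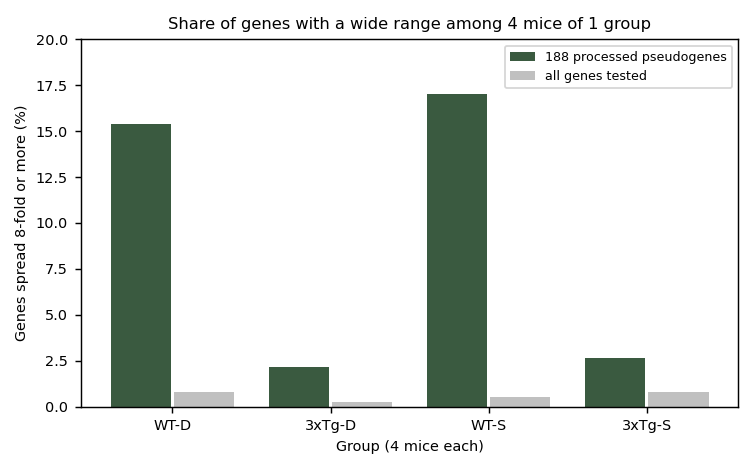
Share of the 188 processed pseudogenes and of all 16475 genes tested whose highest level among the 4 mice of a group was 8 times the lowest or more and reached 1 CPM. The pseudogene bars reach 15.4% and 17% in WT-D and WT-S and 2.13% and 2.66% in 3xTg-D and 3xTg-S.

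The mice that were low differed from pseudogene to pseudogene. Taking 1 CPM as the limit, the 38 pseudogenes showed 26 different sets of WT mice, and each WT mouse was at or above the limit for 15 to 24 of the 38. Of 37 pairs on the same chromosome 1 pair had the same set, as did 16 of 666 pairs on different chromosomes. These counts do not measure shared low mice, because the low level of some copies lies near or above 1 CPM. Gm4202 had 1.44 CPM in WT-D mouse 1 and 1.35 CPM in WT-S mouse 2. Its set therefore differed from that of Gm8276, although both were low in these mice. Gm1840 and Nudc-ps1 had the same set, although Gm1840 was also low in WT-D mouse 3 (1.10 CPM) and WT-S mouse 3 (1.15 CPM). Copies of both kinds were found among the 38. Rtraf-ps (a copy of Rtraf) ranged from 0.192 to 9.99 CPM in WT and from 7.58 to 10.4 CPM in 3xTg mice, and Gm8420 (a copy of the ribosomal protein gene Rpl15) from 0 to 12.7 CPM in WT and from 7.59 to 11.4 CPM in 3xTg mice. In contrast, Eef1a1-ps1, a copy of the elongation factor gene Eef1a1, reached 5.57 CPM in WT and stayed between 0.196 and 0.604 CPM in 3xTg mice. Of the 16 called pseudogenes, 9 were among the 38.

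**Figure D4:**
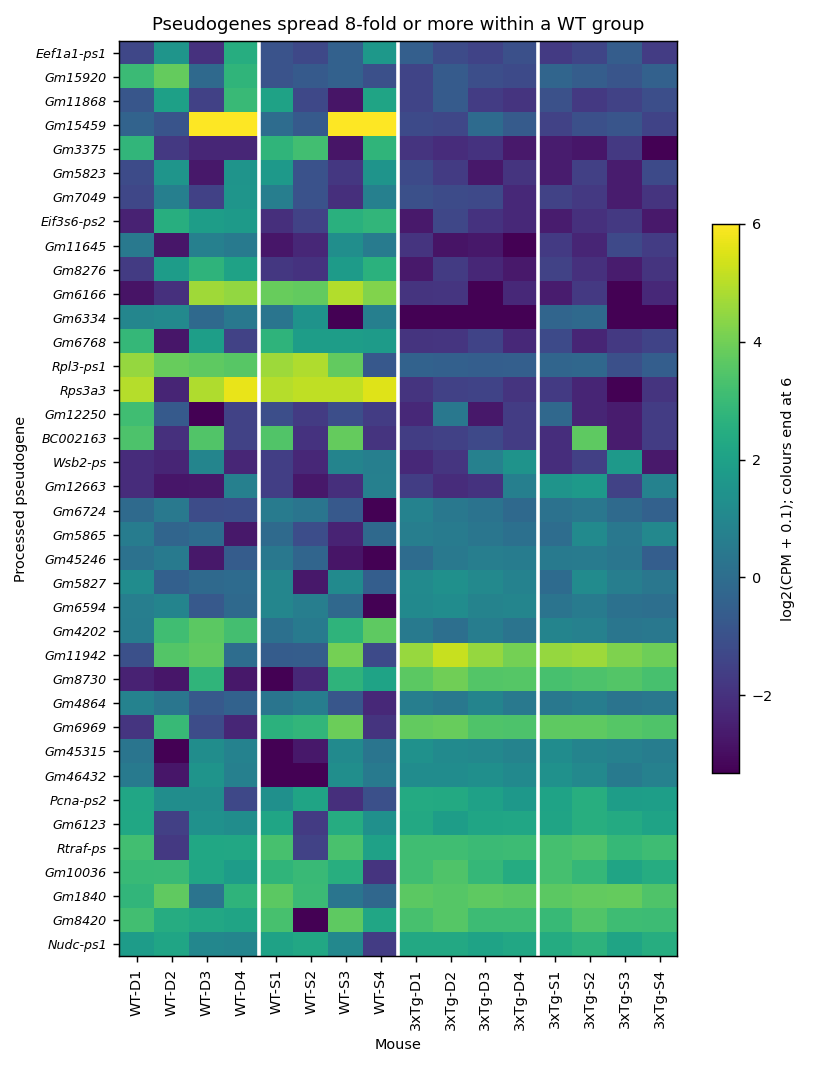
Level of the 38 processed pseudogenes with a wide range in a WT group, 1 column per mouse and 1 row per pseudogene, as log2(CPM + 0.1), with colours ending at 6. Rows are ordered by the number of 3xTg mice at 1 CPM or more. The left 8 columns (WT) change within rows, and the right 8 columns (3xTg) are mostly low in the upper rows and high in the lower rows.

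For some copies the level of the resembled gene moved the other way, mouse by mouse. These pairs were chosen after their values were seen. In WT-D mice 1, 3 and 4, with 31.2, 29.8 and 50.9 CPM of Rps3a3, Rps3a1 had 42.0, 39.9 and 1.12 CPM, and in WT-D mouse 2, with 0.0961 CPM of Rps3a3, it had 87.7 CPM. In WT-S mice Rps3a1 had 41.7, 42.7, 46.3 and 0.977 CPM beside 31.2, 34.0, 34.6 and 47.0 CPM of Rps3a3. In 3xTg mice, with at most 0.265 CPM of Rps3a3, it had 62.1 to 101 CPM. At the upper end, both mice at 47.0 CPM of Rps3a3 or more having about 1 CPM of Rps3a1, a gene for a core ribosomal protein. By genotype Rps3a1 itself was not called (adjusted p = 0.600 under vehicle and 0.589 under CAY10566).

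The same order was seen for Rpl3-ps1 and Rpl3. WT-D mouse 1 and WT-S mice 1 and 2, with 22.7, 24.7 and 29.4 CPM of the copy, had 3.97, 3.38 and 3.16 CPM of Rpl3. The 4 WT mice with 11.7 to 14.1 CPM of the copy had 18.1 to 21.5 CPM of Rpl3. WT-S mouse 4, with 0.488 CPM of the copy, had 33.3 CPM of Rpl3, and the 3xTg mice had 31.5 to 40.4 CPM. Gm15459 is a copy of the chaperone gene Hspa8 (chr5:5781615-5783555) that shares exon sequence with a lincRNA on the opposite strand. It had 154 and 151 CPM in WT-D mouse 3 and WT-S mouse 3, where Hspa8 had 108 and 107 CPM. In WT-D mouse 4 and WT-S mouse 4 it had 79.5 and 72.8 CPM beside 223 and 221 CPM of Hspa8. In the other 4 WT mice it was below 1 CPM and Hspa8 had 328 to 344 CPM, and in 3xTg mice it was below 1 CPM and Hspa8 had 313 to 384 CPM. Only 2.52% of its windows occurred once. Without Gm15459 the summed level of the 188 ranged from 422 to 458 CPM in WT-D and from 385 to 442 CPM in 3xTg-D mice, which overlapped. Under CAY10566 it ranged from 418 to 509 CPM in WT-S and from 349 to 409 CPM in 3xTg-S mice, which did not.

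**Figure D5:**
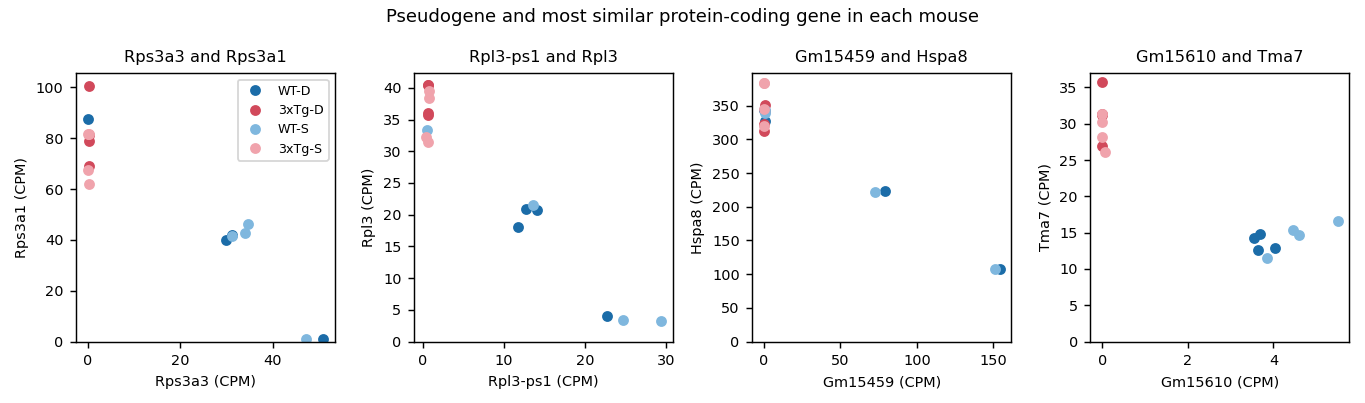
CPM of a processed pseudogene (horizontal axis) and of the protein-coding gene it most resembles (vertical axis) in each of the 16 mice, coloured by group, for Rps3a3 and Rps3a1, Rpl3-ps1 and Rpl3, Gm15459 and Hspa8, and Gm15610 and Tma7. In the first 3 panels WT mice fall at high, middle and near-zero levels of the copy with the resembled gene in the reverse order, and in the last panel the genotypes stand apart.

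Tma7 was higher in 3xTg mice, where Gm15610 was near 0. The WT-D mice averaged 13.6 ± 1.10 CPM, the 3xTg-D mice 31.3 ± 3.6 CPM (SD, n = 4 each; log2 fold change 1.20 ± 0.09, adjusted p = 7.31e-05) and 14.5 ± 2.16 and 28.9 ± 2.30 CPM under CAY10566 (0.98 ± 0.12, adjusted p = 0.00193). Mrpl48 was likewise higher in 3xTg-D, at 51.6 ± 1.68 against 33.8 ± 1.55 CPM (0.61 ± 0.05, adjusted p = 0.000133), and at 48.1 ± 5.69 against 35.7 ± 1.54 CPM under CAY10566 (0.42 ± 0.09, adjusted p = 0.0620). In contrast, Rps13 averaged 7.01 ± 0.341 CPM in the WT-D mice and 6.91 ± 0.303 CPM in the 3xTg-D mice (-0.02 ± 0.10, adjusted p = 0.957). Of the 16 resembled genes of the called pseudogenes, 3 were called under vehicle, 1 under CAY10566 and 5 over both infusions.

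Reads of a copy and its resembled gene were then summed, a step added after the values were seen. The sum of Rps3a3 and Rps3a1 had log2 fold changes of 0.23 and 0.05 under vehicle and CAY10566, and that of Rpl3-ps1 and Rpl3 of 0.32 and 0.13, and none of these was called. Alone, Rps3a1 had 0.95 and 1.13 and Rpl3 had 1.27 and 1.20. Rpl3 alone was not called either (adjusted p = 0.138 and 0.523, edgeR), so the lack of a call does not set these sums apart. The sum of Gm15610 and Tma7 was still called, at 0.85 and 0.58, and so was that of Rps13-ps1 and Rps13, at -0.54 and -0.79. The sum of Rplp0, Gm8730 and Gm9625 was called at -0.71 and -1.0. Only copies among the pseudogenes examined here were added. Rplp0-ps1, which is not one of them, was left out, although it was called higher in 3xTg mice over both infusions. Whether the sum would be called with Rplp0-ps1 included was not tested. Over the 143 sums, 6 were called under vehicle (1.79% of all features tested) and 4 under CAY10566 (1.33%).

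Several copies resembled the same gene. Rplp0, which encodes a protein of the ribosomal stalk, was lower in 3xTg mice, with 79.9 ± 15.8 CPM among the WT-D mice and 34.6 ± 5.2 CPM among the 3xTg-D mice (SD, n = 4 each; log2 fold change -1.20 ± 0.15, adjusted p = 0.00179; -1.48 ± 0.21 under CAY10566, adjusted p = 0.00593). Its copy Gm8730 (chr8:102864845-102865798) reached 12.5, 15.6, 11.2 and 11.5 CPM in the 3xTg-D mice and 9.74, 10.4, 11.2 and 9.77 CPM in the 3xTg-S mice. In WT mice it was present in WT-D mouse 3 and WT-S mice 3 and 4, at 6.81, 6.56 and 4.18 CPM, and at 0.104 CPM or less in the other 5. Rplp0 had 60.5, 64.5 and 48.2 CPM in those 3 mice and 76.3 to 102 CPM in the other 5 WT mice.

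Hmgb1 was resembled by 4 of the pseudogenes. Gm11645, Gm45315 and Gm46432 lie on chromosomes 2, 7 and 13 and were each at 1 CPM or more in the same 5 WT mice, WT-D mice 1, 3 and 4 and WT-S mice 3 and 4. In WT-D mouse 2 and WT-S mice 1 and 2 they had at most 0.104 CPM, and Hmgb1 had 44.0, 44.7 and 42.2 CPM, against 17.5 to 29.7 CPM in the other 5 WT and 15.5 to 19.8 CPM in 3xTg mice. In 3xTg mice Gm45315 and Gm46432 had 1.35 to 2.55 CPM, while Gm11645 had at most 0.321 CPM. The fourth, Gm47240, had reads in 1 of the 8 WT mice.

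Called in at least 1 comparison were 16 of the 188 (8.51%), beside 2.4% of all genes, and by the kind of gene resembled these were spread as follows. The 33 ribosomal protein copies held 3 of the 16 called pseudogenes, namely Rps13-ps1, Rps3a3 and Rpl3-ps1, all lower in 3xTg mice. None of the 16 copies of glycolysis genes, of which 14 resembled the glyceraldehyde phosphate dehydrogenase gene Gapdh, was called in either comparison, and their median log2 fold change was -0.07 under vehicle and 0.17 under CAY10566. Of 7 copies of chromatin and high mobility group genes 1 was called, as was 1 of 4 cytoskeletal, 1 of 5 respiratory and mitochondrial and 1 of 5 proteasome and ubiquitin copies. None of 8 RNA processing, 6 chaperone and isomerase and 8 translation factor copies was called, and the remaining 9 fell among 96 copies of other genes. No difference between these families was tested.

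The abundant copies other than Gm15459 and Rps3a3 differed less. Atp6v0c-ps2, which resembles a proton pump subunit gene, had log2 fold changes by genotype of 0.28 ± 0.19 (adjusted p = 0.591) and -0.85 ± 0.20 (adjusted p = 0.0840). Gm13509, a copy of the clathrin adaptor gene Ap2m1, had 0.05 ± 0.07 (adjusted p = 0.815) and -0.01 ± 0.11 (adjusted p = 0.984). Gm11942 ranged from 0.326 to 16.3 CPM in WT and from 15.3 to 37.4 CPM in 3xTg mice (1.99 ± 0.72, adjusted p = 0.275, and 2.14 ± 0.87, adjusted p = 0.398).

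The 16 called pseudogenes lay on 10 chromosomes, at most 2 on any of them, while the 188 lay on 20. Of 480 other tested genes within 2 Mb of any of the 16, 31 (6.46%) were called over both infusions, against 4.83% of the tested genes elsewhere. Around Gm3375 12 of 63 neighbours were called, 8 lower and 4 higher in 3xTg mice, around Gm5900 5 of 27, all higher, and around Gm14292 4 of 44, all lower. Around Rps3a3, Rpl3-ps1, Rps13-ps1, Mrpl48-ps, Gm6768, Gm8276 and Gm6334 none was.

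The inhibitor was compared with vehicle within each genotype. Between WT-D and WT-S, edgeR called 0 of the 188 (0% of all genes tested), with 8 at an unadjusted p under 0.05, and DESeq2 called 1 (2.25% and 0.0121% of all genes). Between 3xTg-D and 3xTg-S edgeR called 0 (0% of all genes tested), with 11 at an unadjusted p under 0.05 (6.33%), and DESeq2 called 0. The genotype by infusion interaction also gave 0 calls (0%), with 14 at an unadjusted p under 0.05 and 1 call by DESeq2 (4.98% and 0.00607% of all genes). Both DESeq2 calls were Gm15920, whose log2 fold change from WT-D to WT-S was -3.89 ± 0.69 (adjusted p = 0.9996 by edgeR and 0.0308 by DESeq2) and whose interaction was 4.5 ± 0.92 (adjusted p = 0.788 by edgeR and 0.000846 by DESeq2). Without WT-D mouse 3, the only WT-D mouse below 1 CPM, edgeR called it too (adjusted p = 0.00139 and 0.000172). With a block for the mouse number, its log2 fold change from WT-D to WT-S was -3.62 (adjusted p = 0.561 by edgeR).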

How the data were processed

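RNA from the hippocampus of 16 mice, 4 per group, was sequenced. The full strain label of the 3xTg mice is not reported here. The authors trimmed single-end reads with Trimmomatic 0.35, aligned them with STAR 2.5.1b to GRCm38 and deposited raw counts per gene from STAR, without normalization. The strand setting and any removal of duplicates are not given in the sources used here, so overlapping genes on opposite strands cannot be told apart. STAR's gene counts leave out reads that align to several places, which were 11.7% to 15.4% of all reads in the table, and 7.82% to 15.1% lay outside genes. Both stayed out of library sizes.

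The analysis ran in R 4.3.3 with edgeR 4.0.16. Genes with low counts were removed with filterByExpr (minimum count 10, minimum total 15), which left 16475 of 33942 genes with a count. Libraries were scaled by TMM, and groups were compared pairwise by the two-sided quasi-likelihood test, with a call at an adjusted p (Benjamini-Hochberg) up to 0.05, while the study used an unadjusted p of 0.01. The genotype difference over both infusions and the interaction were fitted to all 16 mice. Replicates of a group are separate mice, and within groups libraries differed by more than counting noise (chi-square divided by degrees of freedom, 3.78 to 45.2). The labels number the mice 1 to 4. Deviations of same-numbered mice correlated at 0.114 to 0.340 in all 4 pairs of WT-D and WT-S, so these groups were treated as possibly paired. The results for WT-D against WT-S come from fits without pairing, apart from those given with a block for the mouse number. The block changed no edgeR call among the 188 there.

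Pseudogenes were matched by identifier to Gencode M21, the annotation at hand, while the authors used a later release, and aligned with blastn to its transcripts. The 75-base windows were searched in annotated transcripts only, since no genome sequence was used here. All pseudogenes called in a comparison are named, as are the 5 most abundant and those next to the limit. Others were named after their values were seen. The pseudogenes, families and lists were chosen with earlier results of these data known. Marker lists covered hippocampal neurons, choroid plexus, oligodendrocytes, microglia, astrocytes, endothelium and erythroid cells. Of 4 microglia, 3 astrocyte and 3 endothelial markers none was called in any comparison, and 1 hippocampal neuron marker was called in both genotype comparisons and 1 of 3 erythroid markers over both infusions. Alternatives were DESeq2 1.42.0, median-ratio scaling, other filters, a replicate block, the share of reads outside genes as covariate, all mice in 1 fit and each mouse left out. The fits were tested on simulated counts of 16475 genes with 200 changed, where the vehicle comparison recovered 73% of 2-fold and 92% of 4-fold changes, with 5 false calls. The changed genes were drawn from all tested genes. These rates thus do not describe low-count copies or copies present in only some mice of a group.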

Additional observations from a re-analysis of the deposited data

Results flagged for a closer look

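In 4 of the 64 sets of 4 mice formed by the 16 called pseudogenes and the 4 groups, 1 mouse stood apart by Dixon's test at the 95% level. Sets in which all 4 mice had no read were among the 64 but could not be tested. Chance flags about 1 in 20 sets of normally distributed values, whereas a single read beside 3 mice at 0 is always flagged. Gm3375 had 7.01 CPM in WT-D mouse 1 and 0.1 to 0.192 CPM in the other WT-D mice. Gm6768 had 6.67 CPM in WT-S mouse 1 and 3.36 to 3.58 CPM in the other WT-S mice. The remaining 2 rest on a single read each, Gm15610 in 3xTg-S mouse 4 with 0.0540 CPM and Gm47240 in WT-S mouse 1 with 0.0470 CPM, while the other 3 mice of these groups had no read. Within-group sets such as those of Rps3a3 and Gm15459, in which mice fell at several levels, are not marked by this test.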

How the results depend on the processing

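Without a filter on low counts, 22 pseudogenes were called under vehicle, 23 under CAY10566 and 1 between WT-D and WT-S (1.28%, 1.18% and 0.00589% of all genes). Called in both genotype comparisons were 16, for which no share of all genes was computed. A minimum of 10 counts in every library left 61 of the 188. It gave 1 call under vehicle, 0 under CAY10566, 0 between WT-D and WT-S and 1 over both infusions. Over all genes the shares were 1.13%, 0.861%, 0% and 3.96%, and 1 of 61 is 1.64%. It removed 15 of the 16 called pseudogenes from the test, and with them 24 of the 25 calls. The study's unadjusted p of 0.01 gave 24 under vehicle, 22 under CAY10566, 14 in both, 1 between WT-D and WT-S, 3 between 3xTg-D and 3xTg-S and 3 for the interaction, beside 4.91%, 4.26%, 1.94%, 0.188%, 0.904% and 0.595% of all genes. With the replicate block the counts were 17 under vehicle, 21 under CAY10566, 30 over both infusions and 3 between 3xTg-D and 3xTg-S (Atp6v0c-ps2, Gm13443 and Gm6334), beside 1.82%, 3.14%, 7.38% and 1.24% of all genes. Same-numbered mice correlated at -0.096 to 0.185 under vehicle, -0.101 to 0.496 under CAY10566 and 0.0158 to 0.391 between 3xTg-D and 3xTg-S, and 3, 6 and 4 of 8 mice correlated best with their own number, so the pairing was not taken as given there. DESeq2 gave 17, 17 and 26 genotype calls (3.07%, 2.45% and 5.89% of all genes), 1 between WT-D and WT-S and 1 for the interaction. Among the 125 pseudogenes with 50% or more of their windows found once, 6, 6 and 13 were called. These were 4.8%, 4.8% and 10.4% of the 125, beside 1.85%, 1.4% and 4.97% of all genes. With a ratio of 4 or 16 in place of 8, 11 or 3 pseudogenes had a wide range in a 3xTg group. Leaving out each mouse in turn gave 9 to 18 calls under vehicle, 9 to 14 under CAY10566, 7 to 10 in both, 19 to 26 over both infusions, 0 to 1 between WT-D and WT-S, 0 between 3xTg-D and 3xTg-S and 0 to 1 for the interaction, and wide ranges in 32 to 37 (WT) and 4 to 5 (3xTg). With WT-D mouse 3 left out, the 1 call was Gm15920. No share of all genes is given for the fits with a mouse left out. For the called pseudogenes no setting changed the direction of a fold change, with 4 calls lost and 11 gained among genes still tested under the other settings, and 38 lost and 1 gained when a mouse was left out. The cause of these changes was not tested. The low counts of most of the 188, of which 99 had under 320 summed reads, limit the precision.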
